A study of Mus musculus with 4 samples.

Results

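The genes described are 10 components of Notch signalling, namely the ligands Dll1, Dll3, Dll4, Jag1 and Jag2, the receptors Notch1, Notch2 and Notch3, and the fringe glycosyltransferases Lfng and Mfng. They were chosen by symbol, and each of the 10 has 1 row among the 32285 genes of all 4 count matrices. Single-cell RNA was counted in 4 mouse libraries at E10.5, staged at 34 to 36 somites, and by its title the series concerns the T-box factors Tbx2 and Tbx3 and the fate of otic vesicle cells. The 2 conditional knockout (cKO) libraries came from embryos with floxed Tbx2f/f and Tbx3f/f alleles together with Pax2-Cre and Rosa26-GFPf/+, and the 2 control libraries from embryos with Pax2-Cre and Rosa26-GFPf/+ alone, all of the Swiss-Webster strain. Both groups thus carried the Pax2-Cre driver and the GFP reporter, and only the cKO embryos carried floxed Tbx2 and Tbx3. The tissue was the otic vesicle, the cochleovestibular ganglion and adjoining neural tube and pharyngeal cells, sorted as GFP-positive and DAPI-negative. The protocol names 2 cKO and 3 control embryos and pooled vesicles, but not how embryos were divided among libraries, so the p-values rest on differences between libraries that may be technical in origin.

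Notch signalling passes between touching cells. A ligand of the Delta-like or Jagged family on one cell pulls on a Notch receptor on its neighbour, the receptor is cut, and its inner part enters the nucleus, where with RBPJ it turns on HES and HEY repressor genes. Fringe enzymes add sugars to the receptor, which generally favours signalling from Delta-like over Jagged ligands. In the otic vesicle, cells that enter the neuronal lineage express the proneural factor Neurog1 and the ligand Dll1, and lateral inhibition through Notch holds their neighbours back, while Jag1 marks prospective sensory epithelium. Dll3 differs from the other ligands in that it acts mainly inside the cell that makes it. Message levels show which cells can hold a ligand or a receptor, not whether a signal passed.

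In mm10 with the GENCODE vM21 annotation, Dll1 lies at chr17:15367354-15376872 (minus strand), Jag1 at chr2:137081456-137116644 (minus), Dll3 at chr7:28293553-28302238 (minus), Dll4 at chr2:119325784-119335962 (plus) and Jag2 at chr12:112907819-112929776 (minus). Notch1 lies at chr2:26457903-26516663 (minus), Notch2 at chr3:98013527-98150361 (plus), Notch3 at chr17:32120820-32166852 (minus), Lfng at chr5:140607320-140615545 (plus) and Mfng at chr15:78755882-78773475 (minus). The stretches just upstream of Dll1 and Lfng are shown because these members had the largest genotype differences in otic cells. They are RefSeq windows of build GRCm38.p6, written 5′ to 3′ on the gene's own strand and ending before any annotated transcript, with capitals marking the motifs searched on both strands, none of which overlaps another.
Dll1, chr17:15376933-15377182, minus strand: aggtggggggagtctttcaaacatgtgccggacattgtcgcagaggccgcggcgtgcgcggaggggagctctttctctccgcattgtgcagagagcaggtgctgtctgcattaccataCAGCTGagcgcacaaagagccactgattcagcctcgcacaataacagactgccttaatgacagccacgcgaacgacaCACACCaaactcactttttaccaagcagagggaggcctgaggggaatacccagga
Lfng, chr5:140607091-140607319, plus strand: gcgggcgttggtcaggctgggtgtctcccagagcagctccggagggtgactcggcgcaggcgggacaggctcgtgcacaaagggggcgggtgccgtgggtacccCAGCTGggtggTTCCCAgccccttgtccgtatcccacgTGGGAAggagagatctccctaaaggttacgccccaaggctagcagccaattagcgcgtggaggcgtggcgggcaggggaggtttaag
The motifs were the RBPJ core TGGGAA, the T-box core GGTGTG and the proneural E-box CAGCTG. The Dll1 stretch holds 1 T-box core, read on the opposite strand as CACACC, and 1 E-box. That of Lfng holds 2 RBPJ cores and 1 E-box. The Lfng stretch is printed for its first 229 bases, up to the first annotated transcript, and the shares below come from full windows. Among all 32851 upstream windows of 250 bases, 21.6% hold the RBPJ core, 16.3% the T-box core and 13% the E-box. Of the 9 members with a window, 1 holds the RBPJ core (Lfng), 1 the T-box core (Dll1) and 4 the E-box (Dll1, Dll3, Jag1 and Lfng). These matches describe letters and do not show that a factor binds there.

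The libraries held 106769747 to 128205192 UMIs, and 3220 and 3713 cKO cells and 3869 and 3597 control cells were kept, with median UMI counts of 26970 to 30081. Mitochondrial UMIs made up a median of 1.31% and 1.38% of a cell's UMIs in the cKO libraries and 2.41% and 2.96% in the control libraries, and the part of this difference in the results was not tested. Pairs of libraries shared 2 to 8 cell barcodes. Cells fell into 27 clusters, made without any Notch pathway gene and named for their resemblance to marker lists. Otic epithelium-like cells numbered 1120 and 2021 in the cKO libraries and 2153 and 1833 in the control libraries, and different clusters held them in each genotype. Clusters 0, 3 and 8 were mostly cKO, clusters 4, 5, 10, 11, 12 and 13 mostly control, and only cluster 18 had at least 20 cells in every library. In otic cells Tbx3 was at 24.2 and 18.7 CPM (UMIs of the gene scaled to one common total) in the cKO libraries, against 60.6 and 56.7 CPM in the control libraries. Tbx2 was at 74.0 and 71.1 CPM in the cKO libraries, against 88.9 and 95.2 CPM in the control libraries. The labels do not give the floxed exons, so the remaining UMIs do not measure how complete either deletion was.

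Ligand message was divided among cell classes. Levels across classes are CPM per total UMI of the class, 1 value per library, and are compared only within a gene. In the cKO libraries Dll1 was highest in placodal neuroblast-like cells, at 50.6 and 54.2 CPM, above neural tube progenitor-like cells at 43.3 and 43.0 CPM, while neural tube neuron-like cells, at 54.0 and 26.7 CPM, overlapped with both. In the control libraries neural tube progenitors were highest (40.1 and 37.6 CPM), then neural tube neurons (27.1 and 30.9 CPM) and placodal neuroblasts (22.1 and 16.8 CPM), and these neighbours did not overlap. Otic epithelium as a whole held far less Dll1, at 9.25 and 9.30 CPM in the cKO libraries and 3.19 and 2.54 CPM in the control libraries. Low classes for Dll1 were mesenchyme-like cells, at 0.70 CPM or less in every library, neural crest or glia-like cells in the cKO libraries (1.42 and 0 CPM), which overlapped with mesenchyme, and leukocyte-like cells. Of leukocyte-like cells 0 of 197 had a Dll1 UMI, which allows a share of cells with a UMI of up to 1.52% and sets no limit on cells that express the gene. Leukocytes should lack Dll1 and give the background of free RNA. Intervals and floors here cover counting error only.

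Dll3 followed neuronal cells. It was highest in neural tube neurons, at 183 and 117 CPM in the cKO libraries and 148 and 174 CPM in the control libraries, and next in ganglion neuron-like cells, at 74.7 and 75.8 CPM in the cKO libraries and 56.6 and 43.9 CPM in the control libraries. Otic epithelium held under 1 CPM of Dll3 in every library. Dll4, a ligand known from growing vessels, was highest in endothelium-like cells, at 6.89 and 4.44 CPM in the cKO libraries and 3.28 and 3.92 CPM in the control libraries, from 2 to 5 UMIs a library. Neural tube neurons came next, at 1.68 and 1.57 CPM in the cKO libraries and 2.79 and 1.57 CPM in the control libraries. In all otic cells together Dll4 had 0 and 2 UMIs in the cKO libraries and 0 and 1 in the control libraries, so no fold change is given for it.

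The Jagged ligands were highest in epithelia. Jag1 was highest in otic epithelium in both genotypes, at 54.4 and 55.9 CPM in the cKO libraries and 45.1 and 42.6 CPM in the control libraries. The next class in the cKO libraries was surface ectoderm-like cells (42.0 and 46.4 CPM) and in the control libraries neural tube neurons (29.1 and 24.4 CPM), neither overlapping the otic values. Jag2 was highest in surface ectoderm, at 33.1 and 30.5 CPM in the cKO libraries and 33.2 and 52.7 CPM in the control libraries, and stood at 1.25 CPM or less in otic epithelium.

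**Figure D1:**
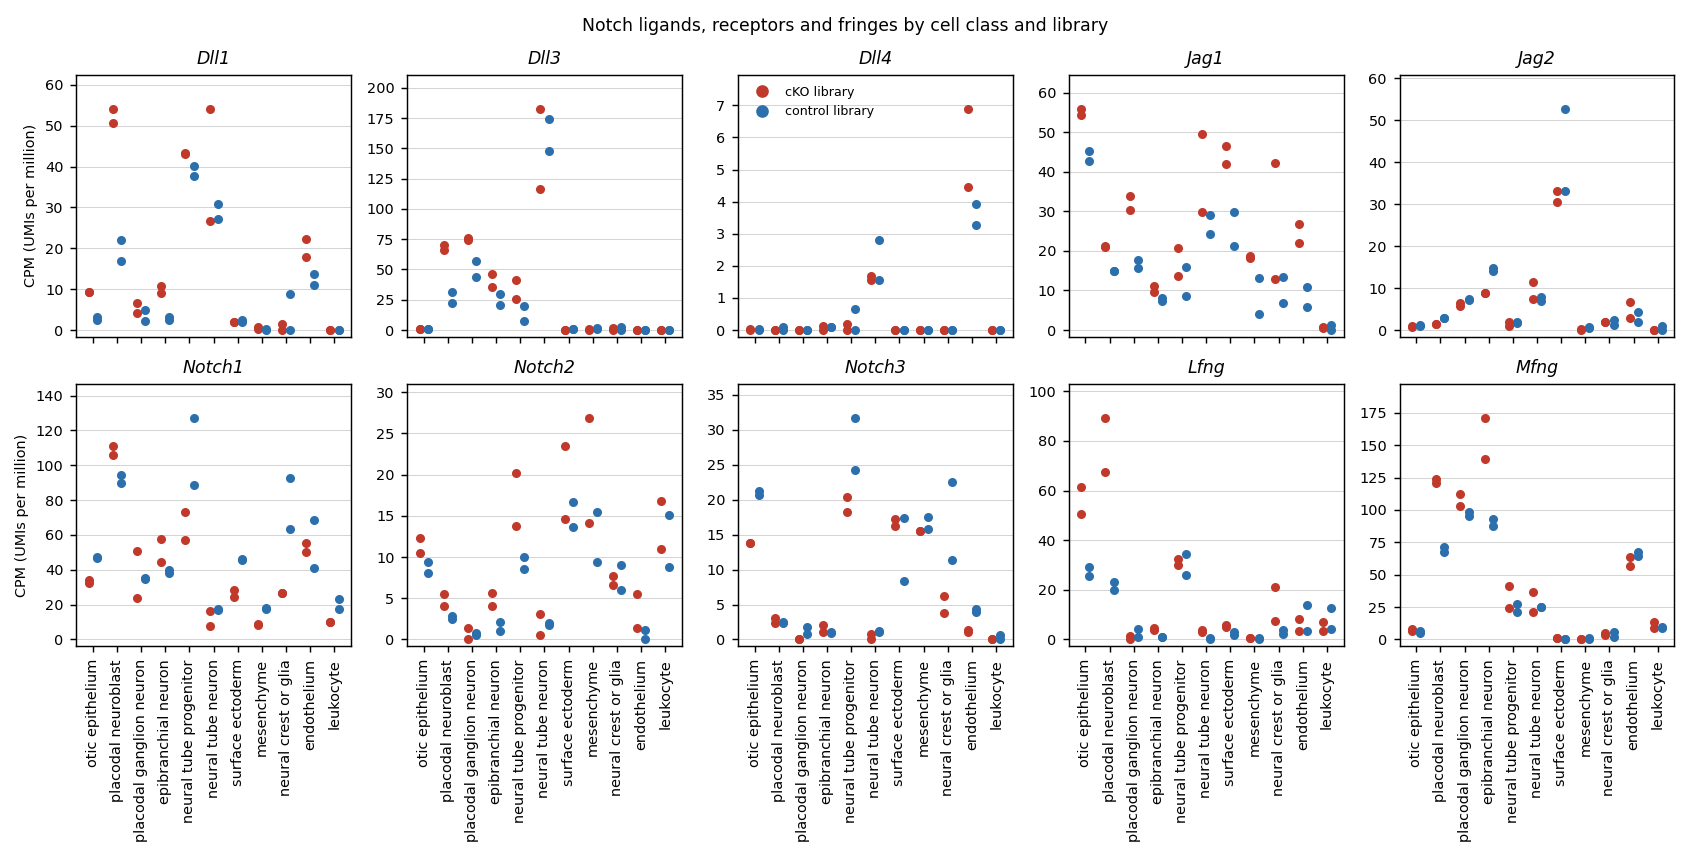
Levels of the 10 members (CPM per total UMI of the class, linear axes that differ between panels) in 11 cell classes; each point is 1 library, cKO in red left of control in blue. Dll1 is high in neuroblasts and neural tube cells, Jag1 in otic epithelium, Jag2 in surface ectoderm and Dll4 in endothelium.

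Receptor levels differed between classes as well. Notch1, the receptor most tied to neurogenesis, was highest in cKO placodal neuroblasts, at 106 and 111 CPM, whereas in the control libraries neural tube progenitors (88.5 and 127 CPM) and neuroblasts (94.2 and 89.7 CPM) overlapped. Neural tube neurons held 16.2 and 7.84 CPM of Notch1 in the cKO libraries and 16.8 and 17.7 CPM in the control libraries, well under their progenitors. Notch3 was highest in neural tube progenitors (20.5 and 18.3 CPM in cKO, 24.2 and 31.7 CPM in control), and in the control libraries otic epithelium came next at 20.7 and 21.3 CPM. Neurons of all kinds held little Notch3, at 2.08 CPM or less in every library. Notch2 was spread over surface ectoderm, mesenchyme, leukocytes, neural tube progenitors and otic epithelium, and neighbours in its order of levels overlapped from the highest class down to otic epithelium in both genotypes.

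The fringes differed between neuroblasts and ganglion neurons. Lfng was at 67.5 and 89.1 CPM in cKO placodal neuroblasts and at 23.1 and 20.02 CPM in control ones. In otic epithelium it was at 50.5 and 61.6 CPM in cKO and 29.1 and 25.6 CPM in control libraries. Ganglion neurons, into which neuroblasts mature, held 1.41 and 0 CPM of Lfng in the cKO libraries and 4.15 and 0.97 CPM in the control libraries. Mfng stayed high there, at 103 and 113 CPM in the cKO libraries and 95.4 and 98.2 CPM in the control libraries. Endothelium also held Mfng, at 63.4 and 56.7 CPM in cKO and 67.8 and 64.7 CPM in control libraries. The plot of levels by class shows these opposite patterns of Lfng and Mfng in ganglion neurons.

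Within the cKO otic epithelium, the 3 main clusters, 0, 3 and 8, held 5.94 to 11.8 CPM of Dll1, 50.9 to 59.7 CPM of Jag1 and 40.7 to 73.0 CPM of Lfng. Notch1 was at 27.4 to 41.0 CPM and Notch3 at 11.3 to 17.9 CPM in the same 3 clusters. Of these 5 members Jag1 had the narrowest spread, in proportion, over the clusters and libraries, and the differences between clusters were not tested.

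Within the control otic epithelium, several members were highest in 1 territory. Cluster 10, led by Otol1, Slitrk6, Tgfb2, Lfng and Fgf3 and holding 0 and 11 cKO cells and 367 and 239 control cells, had the highest Dll1 of the control otic clusters, at 12.8 and 14.2 CPM. It was likewise highest in Jag1 (91.5 and 95.2 CPM), Lfng (112 and 115 CPM), Mfng (23.6 and 21.0 CPM), Notch1 (70.1 and 70.6 CPM) and Notch3 (24.9 and 26.5 CPM). Notch2 was lowest there, at 3.87 and 5.05 CPM. Notch1 was less confined to cluster 10 than Dll1 and Lfng, as the values of the other clusters below show. Lfng was not among the genes used for clustering, so its place among the leading genes was not set by the grouping.

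The other control otic clusters held less ligand and Lfng message. Cluster 12, led by Oc90, Otx1 and Otx2, held 0.92 and 1.11 CPM of Dll1 and 9.96 and 6.74 CPM of Lfng, with 33.0 and 33.4 CPM of Notch1. Clusters 11 and 13, led by Oc90, Dlx5, Tbx1 and Hmx2 and with the highest Tbx3, held 2.39 to 4.12 CPM of Lfng and 21.9 to 27.7 CPM of Jag1, but 51.8 to 58.7 CPM of Notch1. Their Dll1 was at 0.37 to 1.75 CPM. Clusters 4 and 5 lay between, with 19.8 to 30.3 CPM of Lfng and 42.4 to 50.1 CPM of Jag1. For Lfng and Dll1 the values of cKO clusters 0, 3 and 8 thus lay under those of the control cluster 10 and above the control values of every other cluster that was mostly control.

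**Figure D2:**
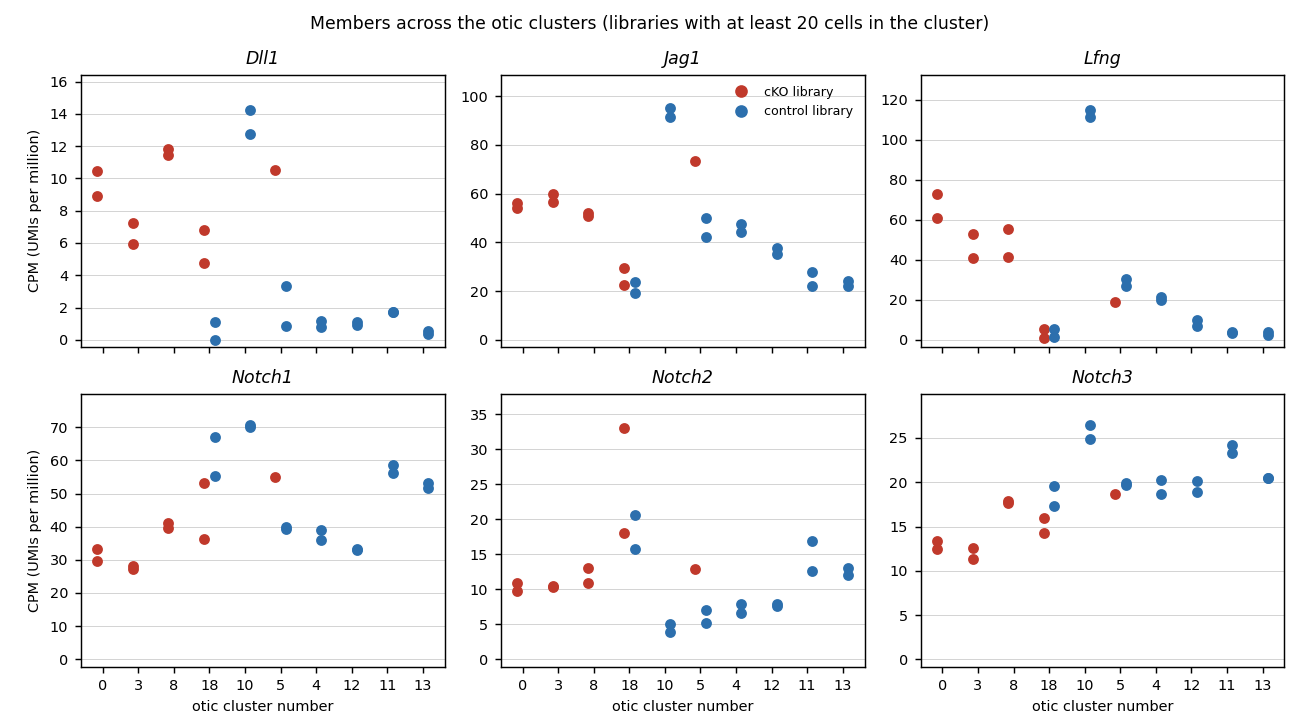
Levels of 6 members (CPM per total UMI of the cluster, linear axes) in the otic clusters, for each library with at least 20 cells there; red points are cKO libraries and blue points control libraries. The cKO clusters 0, 3 and 8 lie at 40.7 to 73.0 CPM of Lfng, between control cluster 10 at 112 and 115 CPM and the other control libraries at 30.3 CPM or less.

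The genotype comparison asked how loss of Tbx2 and Tbx3 changed these messages in otic cells as a whole. CPM in this and later tests are scaled by TMM factors, n = 2 libraries a group, and adjusted p-values come from edgeR's quasi-likelihood test with Benjamini-Hochberg adjustment over all genes tested. The ligands Dll1 and Jag1 and the fringe Lfng rose in cKO otic cells, and the receptors Notch1 and Notch3 fell. Of the 9 members tested, 6 rose and 2 fell, and their median log2 difference was 0.50. Of all 15360 genes tested, 40.2% were called (20.8% higher and 19.3% lower), with a median log2 difference of -0.02, so many otic genes differed between the genotypes. The libraries of the genotypes did not overlap for 8 of the 9 members, against 72.6% of all genes.

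Dll1 was at 9.87 and 9.78 CPM in cKO otic cells, against 3.05 and 2.37 CPM in control otic cells. Both cKO libraries lay above both control libraries, by 1.84 on the log2 scale (SE 0.14, adjusted p = 6.96e-05). Lfng was at 53.8 and 64.8 CPM in cKO otic cells, against 27.8 and 23.8 CPM in control otic cells, a log2 difference of 1.20 (SE 0.11, adjusted p = 0.000166), again without overlap. Jag1 rose less, to 58.1 and 58.8 CPM in cKO otic cells, against 43.2 and 39.7 CPM in control otic cells (log2 0.50, SE 0.07, adjusted p = 0.00131). Dll3 rose at a low level, with 37 and 67 UMIs in the cKO libraries and 32 and 35 in the control libraries (log2 0.92, SE 0.27, adjusted p = 0.0266). Jag2 overlapped between the genotypes, at 1.14 and 0.76 CPM in cKO and 0.83 and 1.16 CPM in control otic cells (log2 -0.08, SE 0.29, adjusted p = 0.839).

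The receptors moved in both directions. Notch1 was at 34.3 and 36.2 CPM in cKO otic cells, against 44.8 and 44.0 CPM in control otic cells (log2 -0.33, SE 0.07, adjusted p = 0.00579). Notch3 was at 14.8 and 14.5 CPM in cKO otic cells, against 19.8 CPM in both control libraries (log2 -0.44, SE 0.08, adjusted p = 0.00283). Notch2 instead rose, to 13.1 and 11.1 CPM in cKO otic cells, against 7.75 and 8.81 CPM in control otic cells (log2 0.54, SE 0.12, adjusted p = 0.00712). In each of the 3 receptors the genotypes did not overlap. Mfng was at 8.73 and 6.92 CPM in cKO and 6.37 and 4.93 CPM in control otic cells (log2 0.45, SE 0.16, adjusted p = 0.0499658). That call was lost with DESeq2, with a filter of 2000 genes per cell, without cKO 1 (log2 0.30) and without control 2 (0.29). The Dll3 call was lost with DESeq2, without cKO 2 (0.85) and without control 1 (0.72).

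Cluster 18, led by Oc90, Rspo3 and Wnt6, was the 1 otic cluster with at least 20 cells in every library. It held 30 and 79 cKO cells and 87 and 105 control cells. Dll1 was there at 6.98 and 4.92 CPM in the cKO libraries, against 0 and 1.13 CPM in the control libraries. The log2 difference was 2.44 (SE 0.62, adjusted p = 0.0261), while 8.9% of all genes were called. Few cells and few Dll1 UMIs stand behind these levels. No other member of the 6 tested there passed. Their directions were those of all otic cells, with log2 differences of -0.31 for Notch1, -0.26 for Notch3, 0.41 for Notch2, 0.27 for Jag1 and 0.22 for Lfng (adjusted p = 0.325 to 0.864). Set beside the differences over all otic cells, that of Notch1 was close to it (SE 0.19 in cluster 18). The Lfng estimate was smaller but imprecise (SE 0.60), at 1.16 and 5.41 CPM in cKO and 1.34 and 5.26 CPM in control libraries. Whether it differs from that over all otic cells was not tested.

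**Figure D3:**
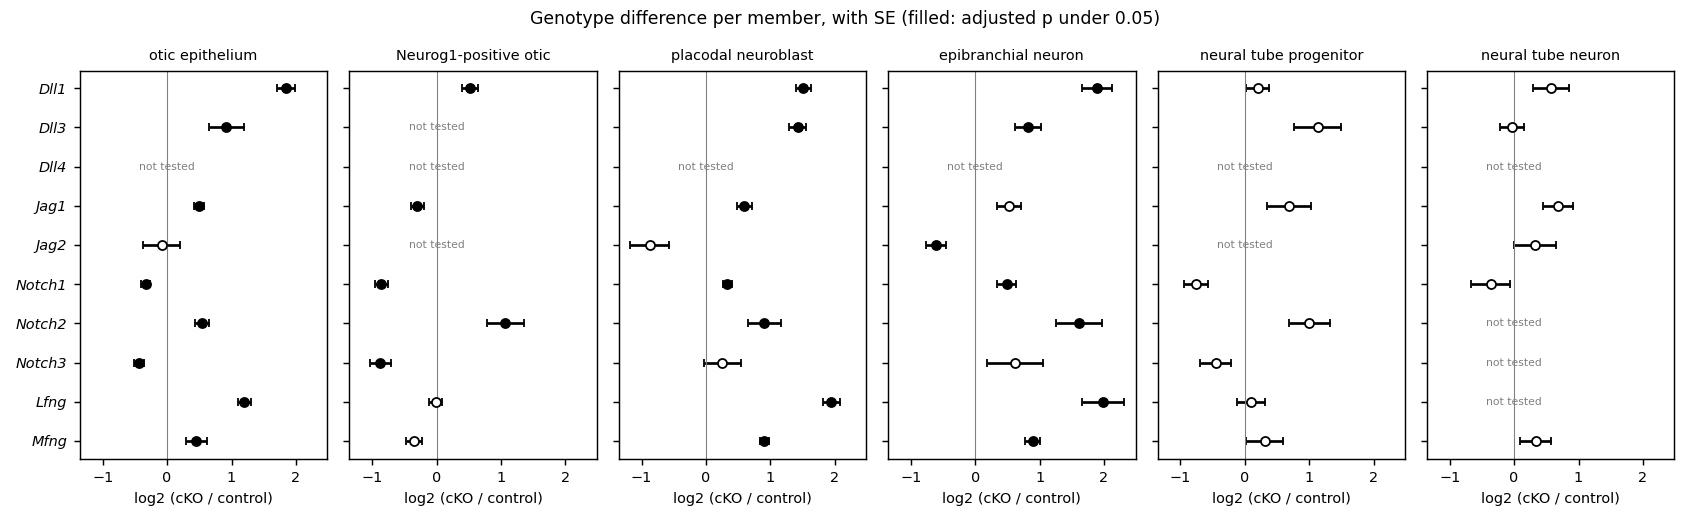
Log2 difference of cKO over control for each member in 6 cell sets, with its standard error (4 libraries, edgeR); filled points have an adjusted p under 0.05. Lfng is at 1.20 in all otic cells but at -0.01 in Neurog1-positive otic cells, and Notch1 is below 0 in both otic sets and above 0 in neuroblasts and epibranchial neurons.

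Neurog1 marks otic cells that enter the neuronal lineage, and cells gated on it were compared on their own. Otic cells with at least 1 Neurog1 UMI numbered 123 and 219 in the cKO libraries and 146 and 87 in the control libraries, which is 11% and 10.8% of cKO otic cells and 6.8% and 4.7% of control otic cells. After thinning every cell to 10000 UMIs these shares were 6.7% and 5.4% in the cKO libraries and 4.7% and 2.9% in the control libraries. In these cells Lfng was at 94.4 and 109 CPM in the cKO libraries, against 96.7 and 111 CPM in the control libraries. The genotypes overlapped, with a log2 difference of -0.01 (SE 0.10, adjusted p = 0.958). Dll1 still rose, to 41.0 and 41.8 CPM in the cKO libraries, against 28.5 and 29.1 CPM in the control libraries (log2 0.52, SE 0.12, adjusted p = 0.00566), less than the 1.84 over all otic cells.

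The receptor differences were larger in the Neurog1-positive cells. Notch1 was at 45.4 and 50.4 CPM in the cKO libraries, against 83.4 and 92.3 CPM in the control libraries (log2 -0.85, SE 0.10, adjusted p = 3.9e-05). Notch3 fell as well, to 12.1 and 14.5 CPM in the cKO libraries, against 25.0 and 24.4 CPM in the control libraries (log2 -0.87, SE 0.17, adjusted p = 0.00157). Notch2 rose, to 8.72 and 9.07 CPM in the cKO libraries, against 4.69 and 3.23 CPM in the control libraries (log2 1.07, SE 0.28, adjusted p = 0.0127). In all, 2 members rose and 3 fell of 7 tested, with 26.1% of all 11310 genes called (14.3% higher and 11.8% lower). The genotypes did not overlap for 6 of the 7, against 64% of all genes. The third that fell was Jag1 (log2 -0.30, adjusted p = 0.0392), a call lost with DESeq2, with no low-count filter (-0.27), without cKO 2 (-0.20), without control 1 (-0.29) and without control 2 (-0.31). With DESeq2 the Dll1 and Notch2 calls were lost too (adjusted p = 0.109 for Dll1 and 0.168 for Notch2). Mfng passed without control 2 (log2 -0.46). The difference between gated and all otic cells was not tested, since the gated cells are part of the otic cells.

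Placodal neuroblast-like cells are the young neurons that leave the otic epithelium and other placodes for the ganglia. Over the class as a whole the ligands Dll1, Dll3 and Jag1, both fringes and the receptors Notch1 and Notch2 rose in the cKO, while Jag2 and Notch3 did not pass. Of 9 members tested, 7 rose and 0 fell, with a median log2 difference of 0.91, against 32.3% of all 12275 genes called (16.7% higher and 15.6% lower) and a median of -0.02. Dll1 was at 52.8 and 55.6 CPM in cKO neuroblasts, against 21.4 and 16.3 CPM in control ones (log2 1.51, SE 0.12, adjusted p = 2.26e-05). Dll3 was at 72.9 and 68.2 CPM in cKO neuroblasts, against 30.3 and 21.8 CPM in control ones (log2 1.43, SE 0.13, adjusted p = 4.62e-05). The gain was largest for Lfng, at 70.4 and 91.5 CPM in cKO neuroblasts, against 22.3 and 19.5 CPM in control ones (log2 1.95, SE 0.13, adjusted p = 7.98e-06). For all 9 members the libraries of the genotypes did not overlap, against 67.6% of all genes.

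Mfng, Jag1, Notch1 and Notch2 rose less. Mfng was at 126 and 127 CPM in cKO neuroblasts, against 69.0 and 66.0 CPM in control ones (log2 0.91, adjusted p = 2.26e-05). Jag1 rose by 0.60 (adjusted p = 0.00399) and Notch1 by 0.33 (adjusted p = 0.00652) on the log2 scale. Notch2 rose at a low level by 0.91 (adjusted p = 0.0219), a call lost with DESeq2, without cKO 1 (0.69) and without control 1 (0.82). Jag2, at 1.49 and 1.46 CPM in cKO and 2.69 and 2.86 CPM in control neuroblasts, did not pass (log2 -0.87, adjusted p = 0.0509), though it did with no low-count filter (-0.87, adjusted p = 0.0423). Notch3, at 2.48 and 3.09 CPM in cKO and 2.28 and 2.39 CPM in control neuroblasts, did not pass either (log2 0.25, adjusted p = 0.524).

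The class holds 2 clusters, and they were compared one at a time after the clusters had been seen. Cluster 19, high in Neurog1 and with Snai2, a gene of epithelial-mesenchymal transition, among its leading genes, held 78 and 96 cKO cells and 60 and 51 control cells. Cluster 1, led by Neurod1, Insm1, Hmx1 and Shox2, held 205 and 256 cKO cells and 347 and 300 control cells. In cluster 19, 15.3% of genes were called and the largest member difference was that of Dll3, at 44.0 and 42.2 CPM in the cKO libraries, against 5.72 and 3.02 CPM in the control libraries (log2 3.13, adjusted p = 1.26e-06). Dll1 rose there by 0.51 (adjusted p = 0.0299), whereas Lfng did not pass, with a log2 difference of 0.24 (adjusted p = 0.247). Notch1 fell in cluster 19, to 105 and 116 CPM in the cKO libraries, against 142 and 159 CPM in the control libraries (log2 -0.43, adjusted p = 0.0328).

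In cluster 1, with 27.5% of genes called, the order was different. Lfng was at 58.1 and 84.3 CPM in the cKO libraries, against 12.03 and 8.91 CPM in the control libraries (log2 2.75, adjusted p = 1.08e-05). Dll1 rose by 1.72 and Notch1 by 0.48. In cKO libraries Lfng was thus high in both clusters, while in control libraries Lfng and Dll1 were high in cluster 19 and low in cluster 1. Clustering at resolution 2 divided such cells by genotype. A cluster with Wfdc3 and Gal among its leading genes held 89 and 144 cKO cells and 3 and 0 control cells. Another, with Hmx1 and Shox2, held 26 and 26 cKO cells and 240 and 189 control cells. The part of this, and of the unequal shares of clusters 19 and 1, in these values was not tested. Hes5, a HES repressor gene, was at 20.5 and 34.4 CPM in cKO cluster 19 and 19.8 and 24.5 CPM in cKO cluster 1, against 0.64 and 0.77 CPM in control cluster 19 and 0.97 and 2.36 CPM in control cluster 1. Hes5 was highest in neural tube progenitors (726 and 724 CPM in cKO, 596 and 828 CPM in control), which made up 7.02% and 1.75% of cKO cells and 1.47% and 2.11% of control cells. In leukocytes it was at 0.75 and 0 CPM in the cKO libraries and 0.94 and 1.25 CPM in the control libraries.

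**Figure D4:**
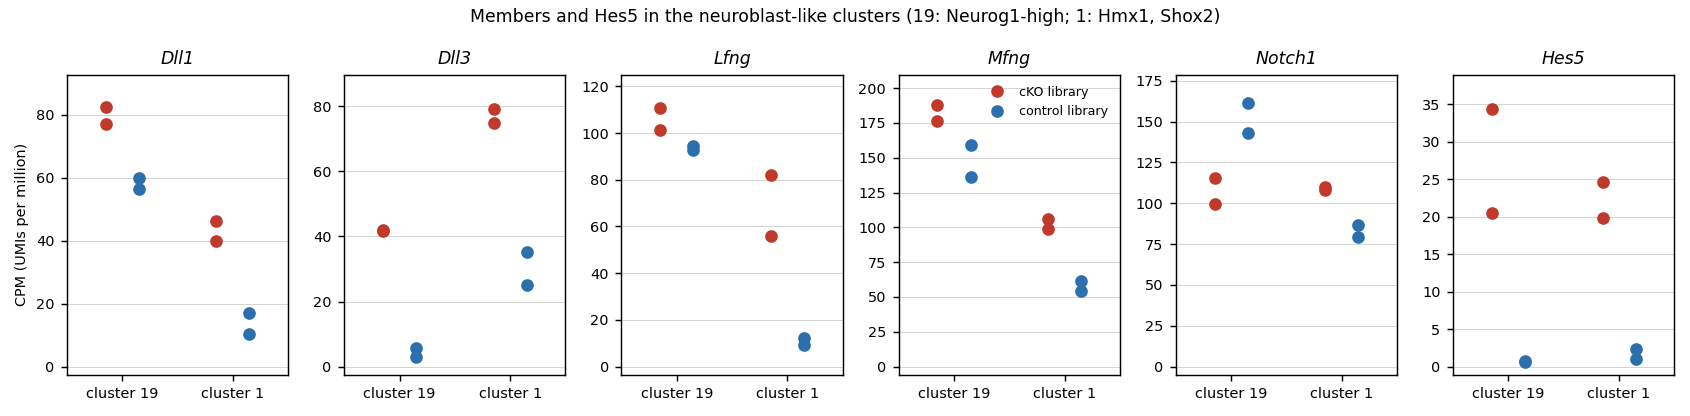
Levels of 5 members and Hes5 (CPM per total UMI of the cluster, linear axes) in neuroblast-like clusters 19 and 1; each point is 1 library, cKO in red left of control in blue. Lfng is high in cluster 19 of both genotypes but in cluster 1 only in the cKO libraries, and Notch1 is lower in cKO in cluster 19 and higher in cluster 1.

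Ganglion neuron-like cells (cluster 6, led by Stmn2, Neurod1 and Nefm) numbered 25 and 18 in the cKO libraries and 234 and 373 in the control libraries, too few in cKO 2 for a test. They held Dll1 at 4.23 and 6.50 CPM in the cKO libraries and 4.85 and 2.25 CPM in the control libraries, so that the genotypes overlapped. Jag1 was at 33.8 and 30.3 CPM in the cKO libraries, from 24 and 14 UMIs, and 15.8 and 17.8 CPM in the control libraries, without overlap. After thinning to 10000 UMIs a Jag1 UMI was found in 34.8% and 11.1% of cKO cells and 12.1% and 14.1% of control cells, which overlapped. The share of all genes without overlap was not computed for this class. Notch1 overlapped, at 50.7 and 23.8 CPM in the cKO libraries and 35.5 and 35.0 CPM in the control libraries.

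Epibranchial neuron-like cells, which resemble the geniculate, petrosal and nodose lineage, held more Dll1, Dll3, Lfng and Mfng and less Jag2 in the cKO. The class joins cluster 9, with Neurod4 and Neurog2 among its leading genes, and cluster 14, led by Stmn2, Sst and Nefl. Cluster 9 held 175 and 215 cKO cells and 114 and 116 control cells. Cluster 14 held 58 and 141 cKO cells and 172 and 161 control cells. The part of this difference in make-up in the class values was not tested. Of 9 members tested, 6 rose and 1 fell, with 24.5% of all 12823 genes called (11.8% higher and 12.7% lower). The genotypes did not overlap for all 9, against 68.4% of all genes. Dll1 was at 9.62 and 10.98 CPM in cKO epibranchial neurons, against 2.36 and 3.13 CPM in control ones (log2 1.89, SE 0.23, adjusted p = 0.00373). Mfng was at 180 and 143 CPM in cKO epibranchial neurons, against 84.4 and 89.8 CPM in control ones (log2 0.89, SE 0.12, adjusted p = 0.00447). Lfng rose at a trace level, with 28 and 53 UMIs in the cKO libraries and 13 and 9 in the control libraries (log2 1.99, adjusted p = 0.00688). Notch2 (log2 1.61), Dll3 (0.82) and Notch1 (0.48) rose too, and Jag2 fell to 9.21 and 9.03 CPM in cKO epibranchial neurons, against 13.6 and 14.2 CPM in control ones (log2 -0.60). Jag1 (0.52, adjusted p = 0.066) and Notch3 (0.62, adjusted p = 0.328) did not pass, Jag1 doing so with no low-count filter (0.53). Calls here leaned on single libraries. Without control 1 the calls over all genes dropped to 795 and without control 2 to 856, of 3137 with all libraries. The Notch1 and Jag2 calls were lost with DESeq2. The Notch1 call was also lost without cKO 1 (0.27), control 1 (0.47) or control 2 (0.51), the Jag2 call without control 1 (-0.63) or control 2 (-0.58), the Dll3 call without cKO 1 (0.60) or control 1 (0.57), and the Notch2 call without control 2 (1.26).

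Neural tube cells, which share the sort but not the placodal origin, were tested in the same way. They come from the same GFP-positive sort, so they are no reference untouched by Pax2-Cre. In neural tube progenitors Dll1 was at 44.6 and 44.2 CPM in the cKO libraries and 40.3 and 37.2 CPM in the control libraries (log2 0.20, SE 0.18, adjusted p = 0.655). Notch1 was at 58.6 and 75.2 CPM in the cKO libraries and 88.9 and 126 CPM in the control libraries (log2 -0.75, SE 0.19, adjusted p = 0.0909), without overlap but short of the threshold. Among 8 members tested in progenitors edgeR called 0, with 3 at an unadjusted p under 0.05, and 1.03% of all genes were called. DESeq2 gave an adjusted p to 0 of the 8 members, so it called 0. Without cKO 1 the Dll3 difference passed (log2 1.53), and without cKO 2 those of Notch1 (-0.88) and Notch2 (1.16) did. With no low-count filter Dll3 (1.15) and Notch1 (-0.74) passed, and with the replicate block Dll3 did (1.35). Among 6 tested in neural tube neurons edgeR also called 0, with 1 at an unadjusted p under 0.05, against 1.4% of all genes, and DESeq2 called 0 with an adjusted p for 1 of them. There Dll1 (log2 0.94) and Jag1 (0.97) passed without cKO 2. With no low-count filter 3 members rose in these neurons, Dll1 (0.57) and Jag1 (0.67) among them, and with doublets kept 1 did, which was not among the 6. Progenitors numbered 57 to 226 and neurons 105 to 265 cells per library.

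Outside the neural classes few members passed. In surface ectoderm, where 5.72% of genes were called, Jag1 rose to 43.1 and 47.5 CPM in the cKO libraries, against 28.9 and 21.1 CPM in the control libraries (log2 0.74, adjusted p = 0.0225). Notch1 fell there, to 29.3 and 25.0 CPM in the cKO libraries, against 44.5 and 45.8 CPM in the control libraries (log2 -0.71, adjusted p = 0.0188). Both ectoderm calls were lost with DESeq2, without cKO 1 (0.84 for Jag1, -0.84 for Notch1) and without cKO 2 (0.70 and -0.61), and that of Notch1 also without control 1 (-0.74). Lfng passed in ectoderm with doublets kept (1.49). In mesenchyme, with 5.82% of genes called, Notch1 fell to 8.84 and 9.18 CPM in the cKO libraries, against 16.9 and 17.3 CPM in the control libraries (log2 -0.92, adjusted p = 0.0285), a call lost without cKO 1 (-0.88) or control 2 (-0.91) and with the replicate block (-0.91). DESeq2 called 0 of the 4 members tested in mesenchyme and gave an adjusted p to 0 of them. Jag1 passed there without cKO 1 (1.25) or control 1 (2.32), and Notch2 without cKO 2 (1.21). Both also passed with no low-count filter (1.25 for Jag1, 0.93 for Notch2) and with doublets kept (1.13 and 0.84). In neural crest or glia-like cells edgeR called 0 of 4 members, with 2 at an unadjusted p under 0.05, and 0.408% of all genes. Notch1 passed there without cKO 1 (-1.43) or control 1 (-1.61), Jag1 without cKO 1 (1.92) and Notch3 without control 1 (-1.76). Notch1 passed as well with no low-count filter (-1.42) and with doublets kept (-1.38). Control 2 stood apart in this class, with a median of 24297 UMIs and 2.82% mitochondrial UMIs per cell, against 4565 to 5530 UMIs and 0.33% to 0.76% in the other libraries, and the part of this in these values was not tested. In leukocytes edgeR called 0 of 4 members, with 1 at an unadjusted p under 0.05, and 2.97% of all genes. Notch1 passed there with no low-count filter (-0.94) and with the replicate block (-0.95). DESeq2 called 0 members in both classes and gave an adjusted p to 0 of them.

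Some members leaned 1 way across classes. Notch1 was lower in the cKO in 7 of the 9 classes tested, the exceptions being neuroblasts and epibranchial neurons. Among those 7, leukocytes were at 10.2 and 10.4 CPM in the cKO libraries and 22.0 and 18.1 CPM in the control libraries (log2 -0.95, adjusted p = 0.077). Notch2 and Jag1 were higher in the cKO in 8 of 8 classes tested each, with 3 calls each. Because all classes come from the same 4 libraries, these directions are not independent of one another.

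Whether the genotype effect differed between otic cells and the placodal neuron lineage (neuroblasts and ganglion neurons together) was tested as an interaction, in which 17.8% of 15188 genes were called. The effect on Lfng was smaller in otic cells, at 1.20 there and 2.55 in the lineage (difference in log2 -1.38, SE 0.12, adjusted p = 4.8e-05). The effect on Notch1 was opposite, at -0.33 in otic cells and 0.73 in the lineage (difference -1.09, SE 0.09, adjusted p = 2.48e-05). For Dll1 the difference of -0.24 did not pass (SE 0.16, adjusted p = 0.343), and for Jag1 it was -0.11 (SE 0.11, adjusted p = 0.552). Notch2 (-0.90), Notch3 (-1.01) and Jag2 (1.24) passed with all libraries. The Jag2 call was lost without any 1 library, with differences of 1.02 without cKO 1, 1.48 without cKO 2, 1.14 without control 1 and 1.403 without control 2. That of Notch2 was lost without cKO 1 (-0.79) or control 2 (-0.78), and that of Notch3 without cKO 2 (-0.80) or control 2 (-0.83). Ganglion neurons were 25 of 308 and 18 of 370 lineage cells in the cKO libraries, against 234 of 641 and 373 of 724 in the control libraries, so the lineage effect also holds that difference in make-up, whose part was not tested.

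Which receptors and fringes the Dll1-bearing otic cells themselves held was asked by splitting otic cells on Dll1. Cells with at least 1 Dll1 UMI numbered 198 and 339 in the cKO libraries (17.7% and 16.8%) and 125 and 87 in the control libraries (5.81% and 4.75%), and after thinning to 10000 UMIs the shares were 7.7% and 6.8% in cKO and 2.4% and 2.1% in control otic cells. Dll1-positive cells held more Notch1, Lfng and Mfng than Dll1-negative cells of the same library, in 4 of 4 libraries each, whereas Jag1, Notch2 and Notch3 did not pass. Dll1-negative cells held ligand message too, with Jag1 at 58.3 and 58.8 CPM in cKO and 42.4 and 39.4 CPM in control libraries. Neurog1 was higher in Dll1-positive cells (log2 4.03, SE 0.20), so the split also separated cells by Neurog1. Over all 14280 genes 2.37% were called. Mfng was at 20.3 and 16.0 CPM in Dll1-positive cKO cells, against 5.75 and 4.68 CPM in Dll1-negative cKO cells. In control libraries Mfng was at 41.2 and 29.4 CPM in Dll1-positive cells, against 4.27 and 3.84 CPM in Dll1-negative cells (log2 2.41 over both genotypes, SE 0.20, adjusted p = 1.48e-06).

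Lfng was at 78.7 and 84.2 CPM in Dll1-positive cKO cells and 84.7 and 76.3 CPM in Dll1-positive control cells. Dll1-negative cells held 47.0 and 59.5 CPM in the cKO libraries and 24.5 and 21.6 CPM in the control libraries (log2 1.053 over both genotypes, SE 0.16, adjusted p = 0.000894). Lfng therefore overlapped between the genotypes in Dll1-positive cells and did not in Dll1-negative cells, and this difference was not tested. Notch1 was at 40.2 and 45.4 CPM in Dll1-positive cKO cells and 80.9 and 74.9 CPM in Dll1-positive control cells. Dll1-negative cells held 32.4 and 33.6 CPM of Notch1 in the cKO libraries and 42.8 and 43.1 CPM in the control libraries (log2 0.60 over both genotypes, SE 0.08, adjusted p = 0.000314). Leaving out control 1 lowered the calls over all genes to 188 and leaving out control 2 to 213, of 339.

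**Figure D5:**
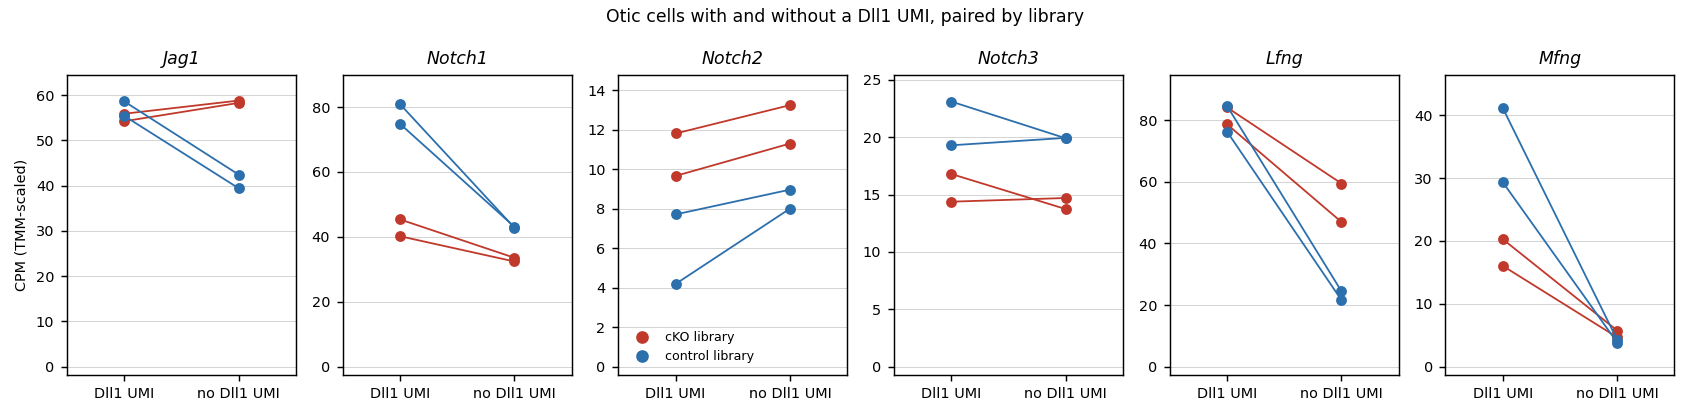
CPM (TMM-scaled, linear axes) of 6 members in otic cells with a Dll1 UMI and in those with none; each line joins the 2 sets of 1 library, cKO in red and control in blue. Lfng is at 76.3 to 84.7 CPM in all Dll1-positive sets, and at 47.0 and 59.5 CPM (cKO) and 24.5 and 21.6 CPM (control) in the Dll1-negative ones.

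Detection in single cells was compared at equal depth. Among otic epithelium-like cells thinned to 10000 UMIs, a Notch1 UMI was found in 45.8% and 41.4% of Dll1-positive cKO cells and 25.8% and 27.6% of Dll1-negative cKO cells. In control libraries it was found in 54.9% and 60.5% of Dll1-positive cells and 35.1% and 33.5% of Dll1-negative cells. Split by Jag1, otic cells had an Lfng UMI in 35.4% and 43.8% of Jag1-positive cKO cells and 24.9% and 30.1% of Jag1-negative ones, and in 28.3% and 24.8% of Jag1-positive control cells and 13.4% and 12.7% of Jag1-negative ones. In placodal neuroblast-like cells a Notch1 UMI was found in 61.2% and 70.3% of Dll1-positive cKO cells and 58.0% and 62.2% of Dll1-negative ones, and in 78.5% and 85.7% of Dll1-positive control cells and 49.2% and 50.7% of Dll1-negative ones. Mesenchyme-like cells, low in both genes, had at this depth a Notch1 UMI in 8.10% and 8.75% of cKO cells and 18.3% and 17.4% of control cells, and an Lfng UMI in 0.40% and 1.25% of cKO cells and 0.92% and 0% of control cells. These shares are descriptions and were not tested.

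The other 43 Notch pathway genes were taken from a list grouped by role, of which 42 passed the count filter in otic cells, with 11 higher, 13 lower and 18 not called, beside 20.8% of all genes higher and 19.3% lower. Their median log2 difference was -0.07, against -0.02 for all genes. Among 7 HES and HEY genes, counted as a family, 4 rose and 1 fell. Hes5 was at 4.33 and 3.03 CPM in cKO otic cells, against 1.63 and 1.68 CPM in control ones (log2 1.13, adjusted p = 0.00333). Hey1 was at 51.1 and 46.2 CPM, against 29.4 and 29.2 CPM (log2 0.73, adjusted p = 0.000291). Hey2 was the member of that role that fell, by 1.26 (adjusted p = 0.00214). Of 6 nuclear complex genes 0 rose and 4 fell, among them the coactivators Maml2 (log2 -1.04) and Maml3 (-0.63). Negative regulators divided, with 4 of 9 higher, Dtx1 by 0.79, and 3 lower. Of the 5 other ligands, receptor and fringe genes, the noncanonical ligand Dlk1 rose to 13.4 and 14.98 CPM in cKO otic cells, against 6.33 and 6.57 CPM in control ones (log2 1.14, adjusted p = 0.000143), Dner fell at a trace level (log2 -2.40, adjusted p = 0.00285), and Rfng, the third fringe, fell to 4.35 and 4.16 CPM in cKO otic cells, against 5.26 and 5.59 CPM in control ones (log2 -0.35, adjusted p = 0.0455). Rfng thus went the opposite way to Lfng and Mfng. Receptor glycosylation and cleavage genes mostly did not pass (2 higher and 1 lower of 11), and of 5 ligand endocytosis genes 0 rose and 2 fell.

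In neuroblasts 39 of the 43 were tested, with 9 higher and 5 lower, beside 32.3% of all genes called there (16.7% higher and 15.6% lower). Of 6 HES and HEY genes tested there, 5 rose and 0 fell. Hes5 was at 20.9 and 27.7 CPM in cKO neuroblasts, against 0.90 and 2.10 CPM in control ones (log2 3.98, SE 0.27, adjusted p = 8.27e-06). Hey1 was at 37.7 and 47.6 CPM, against 9.54 and 11.1 CPM (log2 2.05, adjusted p = 9.5e-06). In neural tube progenitors Hes5 was at 749 and 744 CPM in the cKO libraries and 599 and 820 CPM in the control libraries (log2 0.07, adjusted p = 0.854).

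Over the 26 clusters of at least 100 cells, genes were ranked by the Pearson correlation of log2(CPM + 1) with 4 members among 11613 genes, as a description only, since clusters share libraries. Nearest to Dll1 were Clk3 (r = 0.80), Ankrd6 (0.78), Mybl1 (0.71), Tmem128 (0.71) and Trp53i11 (0.69). Jag1 was most like Rcn2 (0.92), Pigx (0.90), Orc4 (0.90), Zfp873 (0.88) and Jmy (0.88). The pattern of Notch1 was nearest to Antxr2 (0.83), Cnih4 (0.82), Slc43a1 (0.82), Tjap1 (0.80) and Ino80b (0.80). For Lfng the nearest were Shld3 (0.87), Fgf15 (0.84), Rbbp8 (0.82), Brip1 (0.82) and Helq (0.80).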

How the data were processed

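Per the labels' protocols, libraries were made with the 10x Chromium 3′ v3.1 kit. The deposited values are the authors' raw UMI counts per gene and cell, whole numbers written by Cell Ranger 6.0.1 per the file headers. Tools listed in the submitters' processing notes are Seurat 4.1.0, FastQC 0.11.4 and Cell Ranger 3.1.0, with build mm10. Cells with at least 1000 genes and at most 10% mitochondrial UMIs were kept. Scrublet's automatic threshold marked 0 to 5 cells a library, so the highest-scoring 0.8% per 1000 cells were removed instead. Cells were clustered (scanpy 1.11.5, leiden, resolution 1) without Notch pathway genes and named from marker lists by a rule settled after the clusters were seen. 3 clusters stayed unnamed and enter no class.

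Counts were summed per library and class with at least 20 cells in each library and tested with edgeR 4.0.16 (quasi-likelihood, TMM, filterByExpr, Benjamini-Hochberg, threshold 0.05), with DESeq2 1.42.0 as an alternative. Other alternatives changed the normalization, filters, doublets, clusters, resolution, depth and libraries. The code was tested on simulated data. Shares were thinned to 10000 UMIs per cell, which left out 38 to 58 otic cells a library. Named genes are the members, the 4 other pathway genes with the largest changes each way in otic cells, and the 5 nearest to each of 4 members. Rfng was named outside this rule, as the third fringe. The members and lists were chosen with earlier results of these data known.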

Additional observations from a re-analysis of the deposited data

Results flagged for a closer look

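The genotype effect (log2 cKO over control) was tested for a difference between otic cells and the placodal neuron lineage. In edgeR's interaction test with Benjamini-Hochberg adjustment 5 members passed, all members but Dll4 being tested. Of all 15188 genes tested, 17.8% were called. The otic minus lineage difference was -1.381 for Lfng, -1.091 for Notch1, -1.014 for Notch3, -0.898 for Notch2 and 1.241 for Jag2. For Lfng both effects were positive, at 1.20 in otic cells and 2.55 in the lineage. For Notch1 the otic effect was negative (-0.33) and the lineage effect positive (0.73), in all 4 fits that left out 1 library. Within the lineage the Notch1 effect was -0.43 in neuroblast-like cluster 19 and 0.48 in cluster 1. Ganglion neurons were a smaller part of the lineage in the cKO libraries, and the part of this in the lineage effects was not tested. The Notch3 effect was -0.44 in otic cells and 0.53 in the lineage, where it did not pass on its own (adjusted p = 0.173), and that of Notch2 was 0.54 in otic cells and 1.39 in the lineage. The interaction calls of Notch3 and Notch2 were each lost in some of the fits that left out 1 library. Jag2 was low in both, with 46 and 52 UMIs in the cKO and 62 and 71 in the control libraries of otic cells, and its interaction call was lost whichever library was left out.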

How the results depend on the processing

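RLE normalization changed no member result. Of all member results under alternatives 724 kept their direction and side of the threshold, 55 lost the call, 29 gained it and 26 turned sign. The cause of the changes was not tested. The 724 include Dll1 between Dll1-positive and Dll1-negative cells, a result that the split fixed in advance. DESeq2 called 2013 genes in neuroblasts, 296 in ectoderm, 348 in mesenchyme, 1591 in epibranchial neurons, 175 in neural crest, 153 in leukocytes, 3376 in the neuron lineage and 1256 in Neurog1-positive otic cells. Higher genes made up 62.3% of its calls in neuroblasts (51.8% with edgeR), 75.3% in mesenchyme (52.5%), 82.9% in neural crest (42.4%), 63.5% in ectoderm (51.2%), 67% in Neurog1-positive cells (54.9%), 63.5% in neural tube progenitors (46.6%) and 54.2% in leukocytes (41.7%). DESeq2 gave an adjusted p to 1087 genes in neural crest, against 8086 with edgeR, and to 3559 in mesenchyme, against 10374. The numbers were 5172 and 11965 in ectoderm, 1761 and 8570 in neural tube progenitors and 3682 and 8944 in leukocytes. In neuroblasts they were alike, at 12307 and 12275. Where these numbers differ, the shares compare unlike gene sets. Without a low-count filter the calls were 1365 in ectoderm, 1276 in mesenchyme, 518 in neural crest, 375 in neural tube progenitors, 935 in neural tube neurons and 668 in leukocytes. With doublets kept they were 1064 in mesenchyme, 167 in neural crest, 232 in neural tube neurons and 131 in leukocytes, and Dll1 turned to 0.62 in ectoderm, Notch3 to -0.070 in mesenchyme and Mfng to -0.035 in leukocytes. Only cluster 18 gave 924 calls for otic cells, and only cluster 19 gave 1424 for neuroblasts, with Notch1 at -0.43 and Notch3 at -0.72; fewer cells entered both. Lfng in Neurog1-positive cells, near 0 throughout, was 0.0019 with DESeq2, 0.020 with no filter and 0.17 with doublets kept. Between Dll1-positive and Dll1-negative cells 205 genes were called after thinning and 633 at 3 or more Dll1 UMIs, where Dll3 was -0.021.

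Replicate numbers did not pair the libraries: same-numbered deviations correlated at -0.07 to 0.07. With the replicate block the calls were 1140 in ectoderm, 117 in neural crest, 338 in neural tube neurons and 840 in leukocytes. Among members it ended the mesenchyme Notch1 call (-0.91) and added those of Dll3 in neural tube progenitors (1.35) and Notch1 in leukocytes (-0.95).

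Leaving out 1 library, where the lone library left in its group is assumed to vary like the pair, gave 176 to 947 calls in ectoderm, 123 to 1055 in mesenchyme, 795 to 3642 in epibranchial neurons, 10 to 622 in neural crest, 24 to 348 in neural tube progenitors, 105 to 462 in neural tube neurons, 83 to 409 in leukocytes, 2243 to 5041 in the neuron lineage, 1400 to 2645 for the interaction and 188 to 322 for the Dll1 sets. Members whose sign then turned ranged as follows. Jag2 ran from -0.35 to 0.19 in otic cells and -0.67 to 0.028 in ectoderm, where Dll1 ran from -0.19 to 0.17. Notch3 ran from -0.079 to 0.14 in mesenchyme. Lfng ran from -0.050 to 0.32 in neural tube progenitors, -1.25 to 0.17 in leukocytes and -0.12 to 0.093 in Neurog1-positive cells. In neural tube neurons Dll1 ran from -0.094 to 0.94, Dll3 from -0.43 to 0.24 and Mfng from -0.18 to 0.62. In leukocytes Notch2 ran from -0.066 to 0.66 and Mfng from -0.069 to 0.53. The interaction ran from -0.22 to 0.037 for Jag1 and -0.46 to 0.20 for Dll3.

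Doublets kept was not run for neuroblasts, epibranchial neurons and the neuron lineage. Cells were then clustered and named anew, and 0 cells in every library were named placodal neuroblasts. Epibranchial neuron-like cells numbered 560 and 677 in the control libraries, against 286 and 277 with doublets removed. Lineage cells numbered 431 and 373 in the control libraries, against 641 and 724. The naming of these classes thus depended on doublet removal. The filter of 2000 genes was not run for neural crest, where it left under 20 cells in 1 library. Small classes, few UMIs for Dll4, Jag2 and otic Dll3, and 2 libraries a group limit the precision.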
